A study of Capra hircus with 12 samples.

Results

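In the skin of cashmere goat embryos, 28 of 20486 listed genes were at their lowest level at E55 in every embryo of that stage (E, embryonic day), with higher levels both before and after it. The members were chosen by the measured values themselves: the smallest of the 6 values at E45 and E65 had to be at least 1 RPKM (reads per kilobase of gene, scaled to the total reads of the library; the file names this unit, while the study's methods speak of fragments) and at least 1.3 times the largest of the 3 values at E55. The study took mid-flank skin from Inner Mongolia cashmere goats, a breed kept for its fine undercoat, from 3 embryos per stage at E45, E55 or E65, with no treatment in any group. The embryos were unrelated by the study's own account, and each gave 1 library of polyadenylated RNA. Each stage was sampled from different animals, so a low value at E55 compares embryos and does not follow any animal through time. The dip is thus the result of the choice, its size is given as a description, and no test of E55 against another stage is read as support for it.

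Hair follicles form when the surface epithelium thickens into placodes above condensing dermal cells, and signals of the WNT, EDA, FGF, BMP and Hedgehog families pass between these layers. In the cashmere goat the primary follicles, which grow the guard hair, start before the secondary follicles, which grow the cashmere fibre. The 3 stages lie around the start of the primary follicles. In whole skin, fewer cells of a type and less RNA per cell cannot be told apart. None of the 20486 gene identifiers matched a symbol in the RefSeq gene table used (0 matched), so the roles of the members and the defining markers of skin were not analysed here. The identifiers of 4 members are given by the rule for named genes, and the others are described by chromosome and level.

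The members together carried 0.0614% of all RPKM at E45, 0.0241% at E55 and 0.0559% at E65. The sum of their RPKM was 252.88, 363.18 and 394.16 in E45-1, E45-2 and E45-3. In the E55 embryos it was 141.14, 136.88 and 128.27, and in the E65 embryos 347.24, 335.04 and 304.35. Each E55 sum was below each of the other 6, which the choice of the members made certain. The members were of low to middle abundance, with a median over genes of the mean RPKM of 5.76 against 14.3 for the 11474 genes that had at least 1 RPKM in all 6 E45 and E65 samples. At least 10 RPKM on average was reached by 9 of the 28. At E55 8 members went below 1 RPKM in at least 1 embryo, while 20 stayed at or above it in all 9 samples.

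**Figure D1:**
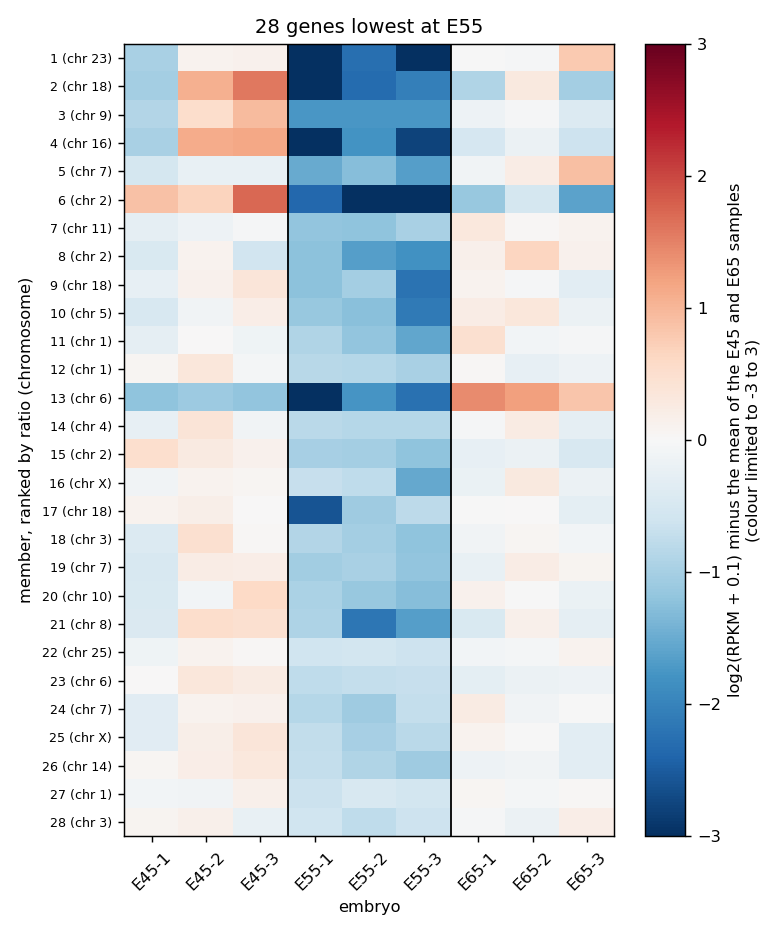
Each row is 1 of the 28 genes, ranked by the ratio of its smallest E45 or E65 value to its largest E55 value, and each column is 1 embryo; colour gives log2(RPKM + 0.1) minus the mean of the 6 E45 and E65 samples of that gene, limited to 3 in either direction. The E55 columns are blue in every row because the genes were chosen so, and the 5 genes with an E55 mean under 25% of their level at the other stages stand out as the darkest rows.

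The depth of the dip was measured as the E55 mean in percent of the average of the E45 and E65 means. Its median over the 28 members was 45.0%, with a range from 6.82% to 67.1%, while the median over the 11474 genes was 92.2%. In 5 members it was under 25% (6.82% to 13.4%), in 14 members from 26.4% to 49.4%, and in 9 members from 52.2% to 67.1%. The E45 mean was between 1.48 and 23.5 times the E55 mean, with a median of 2.27. The E65 mean was between 1.46 and 17.0 times the E55 mean, with a median of 2.28.

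The deepest dip was that of goat_GLEAN_10003496_gene on chromosome 23. Its RPKM was 9.94, 21.14 and 21.55 in the E45 embryos, 0.09, 4.03 and 0.15 in the E55 embryos, and 19.31, 19.11 and 34.08 in the E65 embryos. The gene was close to 0 in E55-1 and E55-3, whereas E55-2 kept a clear signal, and its lowest value outside E55 was that of E45-1. The E45 mean was 17.5 ± 6.59 RPKM (SD, n = 3), the E55 mean fell to 1.42 ± 2.26 (SD, n = 3), and the E65 embryos averaged 24.2 ± 8.59 (SD, n = 3). The smallest E45 or E65 value was 2.47 times the largest E55 value, the highest ratio among the members.

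The second highest ratio, 2.06, belonged to GOAT_ENSBTAP00000030891_gene on chromosome 18. It had 6.84, 29.22 and 42.00 RPKM at E45, 0.90, 2.74 and 3.32 at E55, and 7.48, 17.26 and 6.85 at E65. The return at E65 was partial on average, from 26.0 ± 17.8 (SD, n = 3) at E45 to 10.5 ± 5.84 (SD, n = 3) at E65, although the embryos of these stages overlapped. E45-1, at 6.84, and E65-3, at 6.85, were nearly level, and E65-1 was only slightly higher.

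The other 3 of the 5 deep members differed in shape. A gene on chromosome 2 had 11.33, 9.69 and 20.41 RPKM at E45, 1.11, 0.30 and 0.35 at E55, and 2.74, 4.17 and 1.94 at E65. Its E65 values were all below its E45 values, so that it regained only part of its first level. A gene on chromosome 6 had the opposite shape, with 6.09, 6.69 and 6.26 RPKM at E45, 0.68, 4.15 and 2.95 at E55, and 38.33, 33.45 and 25.72 at E65. It was steady among the E45 embryos, and its E65 mean was 12.5 times its E55 mean. The last, on chromosome 16, had 1.85, 8.28 and 8.52 RPKM at E45, 0.15, 1.02 and 0.46 at E55, and 2.61, 3.34 and 2.41 at E65. Here E45-1 was below all 3 E65 embryos while E45-2 and E45-3 were above them.

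The other 2 members given by identifier were those with the highest E65 mean outside the first pair. GOAT_ENSP00000378110_gene on chromosome X had 59.38, 85.04 and 96.99 RPKM at E45, 45.04, 37.76 and 43.02 at E55, and 80.35, 74.59 and 60.50 at E65. It was the most abundant member, with 41.9 ± 3.76 RPKM (SD, n = 3) left at E55, and the margin over E55 was narrow in E45-1 and E65-3. GOAT_ENSBTAP00000050811_gene on chromosome 1 had 29.92, 36.57 and 33.37 RPKM at E45, 19.32, 15.87 and 12.30 at E55, and 50.82, 34.35 and 35.51 at E65. Its E55 mean was 15.8 ± 3.51 (SD, n = 3), and the E65 embryos overlapped those of E45.

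**Figure D2:**
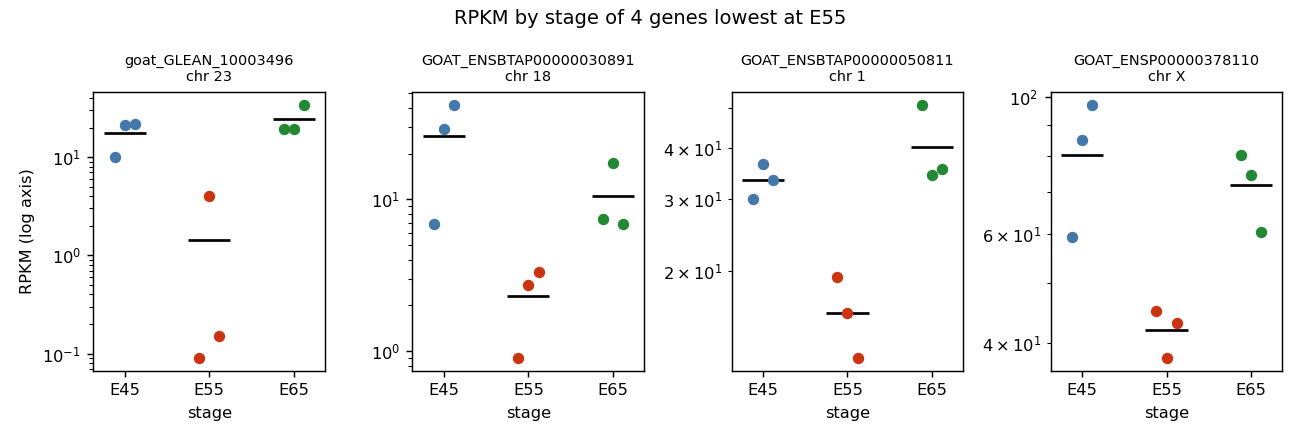
RPKM on a log axis of the 4 members given by identifier, with 1 point per embryo, 3 embryos at each stage and a bar at the stage mean. Each panel has its own range; the E55 points run from 0.09 to 4.03 RPKM in the gene on chromosome 23 but only from 37.76 to 45.04 in the gene on chromosome X.

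The spread among the E55 embryos is given as a description, since the rule leaves little room for it in a shallow member and much in a deep one. In 16 of the 28 members the largest E55 value was under 1.5 times the smallest, and in 6 it was at least 3 times the smallest. In the 5 deep members this ratio ran from 3.69 to 44.8, and their coefficient of variation at E55 had a median of 77.4%. In the 9 shallow members, where the rule keeps it small, it had a median of 5.84%. The tightest E55 values were those of a gene on chromosome 9, with 1.98, 1.97 and 1.98 RPKM, although its E45 values were 3.67, 9.99 and 13.23. A gene on chromosome 4 had 4.97, 4.77 and 4.78 at E55, against 7.36, 11.45 and 8.09 at E45 and 8.53, 10.45 and 7.28 at E65. The depth behind single values is not known from RPKM rounded to 2 decimals.

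Among the members with a dip of middle depth, a gene on chromosome 11 was uniform within every stage. It had 11.24, 12.16 and 13.09 RPKM at E45, 5.93, 5.79 and 6.81 at E55, and 16.74, 13.75 and 14.64 at E65, with every E65 embryo above every E45 embryo. A second gene on chromosome 2 had 8.20, 6.95 and 6.25 RPKM at E45, 2.84, 2.80 and 2.43 at E55, and 4.85, 5.08 and 4.09 at E65. There the E65 embryos lay between the other stages without overlap. A gene on chromosome 7 with a low level had 1.48, 1.85 and 1.86 RPKM at E45, 0.70, 0.84 and 0.63 at E55, and 2.01, 2.55 and 4.15 at E65. E65-3 was the highest of its 9 values.

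The choice rested strongly on 1 embryo. E45-1 held the smallest of the 6 E45 and E65 values in 15 of the 28 members, and it was the lowest E45 embryo in 21. Over the 11474 genes with at least 1 RPKM in these 6 samples it held the smallest value in 35.7% and was the lowest E45 embryo in 55.8%. Its median ratio to the largest E55 value of a member was 1.64, against 2.15 for E45-2 and 2.01 for E45-3. Without E45-1 the rule gave 144 genes in place of 28, without E55-2 it gave 80, without E55-1 74 and without E55-3 50. Leaving out a sample can only add genes, and without any of the other 5 embryos the number was between 31 and 41.

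**Figure D3:**
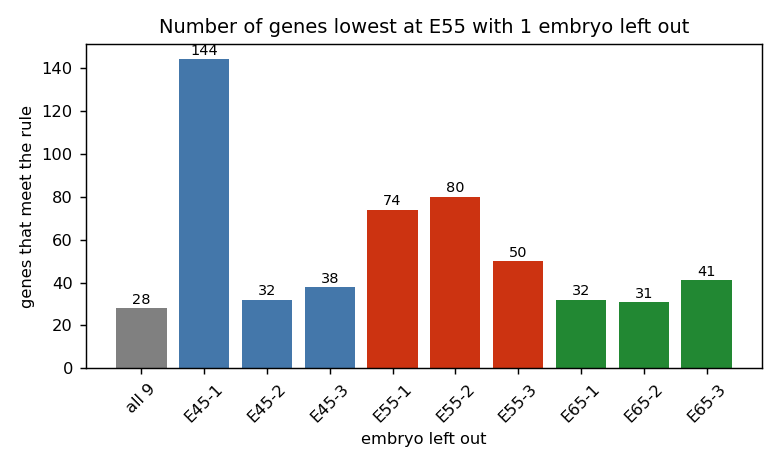
Bars give the number of genes that met the rule in all 9 samples (grey) and with 1 embryo left out (blue E45, red E55, green E65). The bar without E45-1 is the highest at 144, those without an E55 embryo reach 50 to 80, and the others stay between 31 and 41.

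The line drawn by the rule also set the number. The members just inside the ratio of 1.3 were a gene on chromosome 3 (ratio 1.31, with 10.56 RPKM as the smallest value outside E55 and 8.06 as the largest at E55) and a gene on chromosome 1 (ratio 1.31, with 3.46 and 2.64). Just outside it was a gene on chromosome 4 with a ratio of 1.28. That gene had 1.28, 6.37 and 4.67 RPKM at E45, 0.80, 0.68 and 1.00 at E55, and 2.33, 1.53 and 2.36 at E65. On the other limit, a gene on chromosome 14 met the ratio but had 0.96 RPKM in E45-1. With the stage means alone in place of the separation of all samples, 736 genes met the 1.3 ratio.

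The rule was also applied with E55 highest, and with E45 or E65 in the place of E55. The floor of 1 RPKM was kept for the higher side. It thus held for the 6 other samples where a stage was lowest, but only for its own 3 samples where it was highest. E55 was lowest in 28 genes and highest in 94. E45 was lowest in 114 and highest in 300, and E65 was lowest in 467 and highest in 415. At this ratio and with all 9 embryos the dip at E55 had the smallest of the 6 counts. The difference between the counts was not tested, and the other 5 patterns were not counted with an embryo left out, whereas the dip gave 144 genes without E45-1. With a ratio of 1, where the samples only had to be separated and meet this floor, E55 was lowest in 378 genes and highest in 360. With a ratio of 1.5 these numbers were 11 and 52, and with a ratio of 2 they were 2 and 17. No dip reached a ratio of 3 (0 genes), while 4 peaks did.

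**Figure D4:**
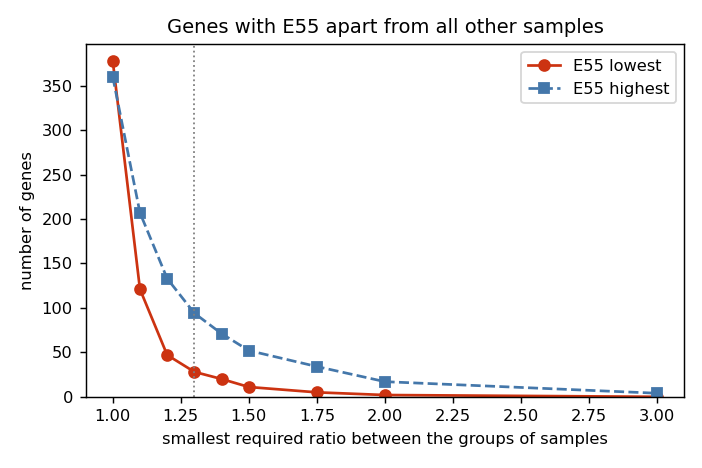
Number of genes whose 3 E55 values all lay below (red, E55 lowest) or all above (blue, E55 highest) the 6 other values by at least the ratio on the x axis. A floor of 1 RPKM applied at every ratio, to the 6 other values for red and to the 3 E55 values for blue. The numbers are similar at a ratio of 1, with 378 and 360 genes, and at the dotted line of 1.3 they are 28 and 94.

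The stages were compared with limma on log2(RPKM + 0.1), in 1 fit of all 9 samples over the 16604 genes averaging 0.1 RPKM or more. A gene was called when its adjusted p was below 0.05 and its level changed by 1 or more on the log2 scale. All 28 members were tested. In E55 vs. E45, 5 members were called lower, against 0.494% of all tested genes, and in E65 vs. E55, 12 members were called higher, against 2.11%. The rule used both comparisons, so these counts only describe how many members also met the criteria of the fit. The log2 fold changes ran from -4.84 to -0.55 in E55 vs. E45, with a median of -1.11, and from 0.52 to 5.33 in E65 vs. E55, with a median of 1.18. Large fold changes were not always called. The chromosome 23 gene had a log2 fold change of -4.84 in E55 vs. E45 with a standard error of 0.98. It was not called there (adjusted p = 0.0539 from limma) but was called higher in E65 vs. E55. In total 13 members were called in none of the 3 comparisons.

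In this fit few genes were called in each comparison alone, 0.494% lower in E55 vs. E45 and 2.11% higher in E65 vs. E55. Calls on both sides of E55 were also few, and they were not counted in other settings. Of the 16604 genes, 2 (0.012%) were called lower in E55 vs. E45 and higher in E65 vs. E55, and both were members, which the rule favoured since it used the same values. They were the deep member on chromosome 2 described above and GOAT_ENSBTAP00000050811_gene on chromosome 1. The log2 fold changes of the first were -4.45 and 2.28, each with a standard error of 0.48. Those of the second were -1.09 and 1.34, each with a standard error of 0.20. Single embryos changed how many members were called in E55 vs. E45. Leaving out E45-1 gave 19, with 6.45% of all tested genes called lower, and leaving out E45-2 gave 0, with 0 of all tested genes called lower. The number of calls over all genes thus moved together with that of the members. All 28 members had, without E45-2, an unadjusted p under 0.05 from limma, which the rule favoured and from which nothing is read. In E65 vs. E55 the number was 4 without E55-3 (0.77% of all tested genes called higher), 6 without E65-1 (1.02%) and 6 without E65-2 (0.95%).

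Whether the level after the dip differed from the level before it is a comparison that the rule did not fix, although both groups entered it. In E65 vs. E45, 1 of the 28 members was called higher and 1 lower. Of all tested genes 4.9% were called higher and 9.21% lower, so the share among the members, 3.57% in each direction, was not above the background. With quantile normalization of the samples 1260 genes were called higher and 997 lower, in place of 813 and 1530, and 2 members were called higher and 1 lower. The median log2 fold change was -0.05 over the members and -0.07 over all tested genes. The E65 mean was higher than the E45 mean in 10 members and lower in 18. In 4 members every E65 embryo was above every E45 embryo, and in 4 every one was below. Among the 11474 genes with at least 1 RPKM in these samples, 17.8% were above and 17.1% below without overlap. In the other 20 members the embryos of E45 and E65 overlapped.

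The gene called higher in E65 vs. E45 was the deep member on chromosome 6, with a mean of 6.35 ± 0.309 RPKM (SD, n = 3) at E45 and 32.5 ± 6.36 (SD, n = 3) at E65. Its log2 fold change was 2.32 (adjusted p = 0.0149 from limma), with a standard error of 0.52. The gene called lower was the deep member on chromosome 2, with 13.8 ± 5.77 RPKM (SD, n = 3) at E45 and 2.95 ± 1.13 (SD, n = 3) at E65. Its log2 fold change was -2.18 (standard error 0.48, adjusted p = 0.0139 from limma). The first lost its call without E65-1 (adjusted p = 0.0547) and the second without E65-3 (adjusted p = 0.0522). Calls over all tested genes, 813 higher and 1530 lower with all 9 embryos, fell as well. They were 595 and 1024 without E65-1 and 658 and 1047 without E65-3. Without E65-2 they were 584 and 898, and both members stayed called. Both genes were singled out after their values were seen. Among the genes given by identifier, the log2 fold changes were 0.49 (standard error 0.98, adjusted p = 0.766) for goat_GLEAN_10003496_gene and -1.08 (standard error 0.70, adjusted p = 0.311) for GOAT_ENSBTAP00000030891_gene. Single embryos moved both values, to 0.12 and -1.86 without E45-1 and to 0.68 and -0.56 without E45-3. The log2 fold changes were 0.25 (standard error 0.20, adjusted p = 0.406) for GOAT_ENSBTAP00000050811_gene and -0.14 (standard error 0.19, adjusted p = 0.627) for GOAT_ENSP00000378110_gene. Without E65-1 the value of GOAT_ENSBTAP00000050811_gene was 0.07. Without E45-3 the value of GOAT_ENSP00000378110_gene was 0.005, so that its sign turned. The E45 and E65 values of these 4 genes also entered the rule, and the last 2 genes were chosen by their E65 mean, so these tests are given as a description.

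**Figure D5:**
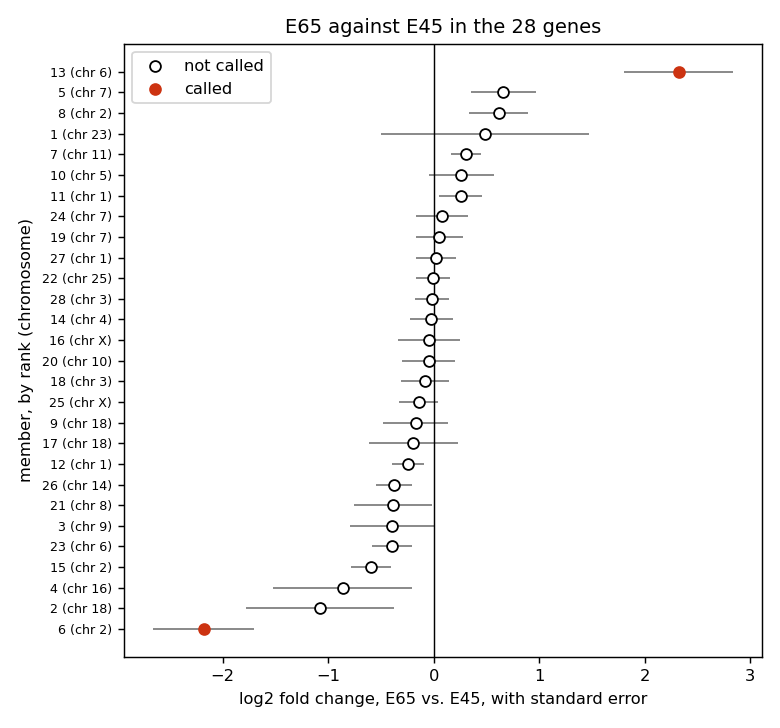
Log2 fold change in E65 vs. E45 of each of the 28 members with its standard error from limma, sorted by size; filled red points mark the 2 called genes, on chromosomes 2 (-2.18) and 6 (2.32). Most other members lie near 0, and the gene on chromosome 23 has the longest bar.

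The members were spread over 17 of the 30 chromosomes listed in the file. Chromosomes 1, 2, 7 and 18 held 3 members each, chromosomes 3, 6 and X held 2 each, and 10 chromosomes held 1. Positions within a chromosome were not used here, so whether members of the same chromosome are neighbours is not known. By the form of their identifiers, 17 members (60.7%) came from gene models built on human Ensembl proteins, 8 (28.6%) from models on bovine Ensembl proteins and 3 (10.7%) from GLEAN, a program that merges gene predictions. Of the 11474 genes with at least 1 RPKM in the E45 and E65 samples these shares were 46.3%, 46.2% and 7.51%.

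A member on chromosome 7 is 1 of 9 listed genes modelled on the same human protein. It had 1.81, 2.50 and 2.52 RPKM at E45, 1.24, 1.05 and 1.37 at E55, and 2.76, 2.14 and 2.28 at E65. None of the other 8 met the rule. In 7 of them the E55 mean was nevertheless below both other stage means, at 42.0% to 79.2% of their average, although the embryos of E55 were not all below those of the other stages by the ratio of 1.3. The exception was the most abundant of them. This gene, also on chromosome 7, had 15.75, 23.36 and 20.12 RPKM at E45, 30.01, 19.90 and 25.70 at E55, and 26.56, 22.63 and 29.00 at E65. Only reads with a single genome location were counted, so reads shared by such copies are lost, and the values of this member are uncertain.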

How the data were processed

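The authors cleaned the reads of the 9 RNA-seq libraries (FASTX-Toolkit), mapped them on the goat genome (TopHat) and kept uniquely aligned reads (genome build not given in the sources used here). The authors deposited 1 RPKM value per gene and embryo, with 2 decimals; the file names RPKM and the methods FPKM, and which was computed is not known. Reads could not be recovered: in 62.3% of the 5117 genes with a 0 and a value above 0, the smallest value above 0 was at most 0.05, so rounding hides the step of 1 read. The sum of RPKM ran from 537791 (E45-1) to 602169 (E65-2). The small RNA pools were not used here.

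The rule was applied to the RPKM as deposited. Stages were compared with limma 3.58.1 (R 4.3.3) on log2(RPKM + 0.1) with stage alone in the model and a trended prior variance, over the 16604 genes averaging 0.1 RPKM or more, with Benjamini-Hochberg adjustment; fold changes on this scale understate those of low genes. The code was tested on simulated data. Members, gene lists, tests and thresholds were chosen with earlier results of these data known. Named genes were the 2 members with the highest ratio and the 2 with the highest E65 mean among the rest. Gene and marker lists were not analysed, as no identifier matched a symbol. Alternatives were other ratios, floors, pseudocounts, filters, scalings, array weights, a replicate block, fewer samples and each embryo left out.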

Additional observations from a re-analysis of the deposited data

How the results depend on the processing

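The number of genes at their lowest at E55 was 47 with a ratio of 1.2, 11 with 1.5 and 2 with 2, and 15 with a floor of 5 RPKM. It was 736 with stage means only. With 1 embryo left out it ran from 31 to 144. Scaling kept 23 of the 28 members with equal RPKM sums (27 genes in all), 21 with median scaling (23 genes) and 18 with quantile normalization (21 genes). The cause of these changes was not tested beyond the construction of the rule, in which lower limits and fewer samples add genes.

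The 2 members called in E65 vs. E45 stayed called in all settings except without E65-1 (595 genes higher, 1024 lower) or E65-3 (658, 1047). With 1 embryo left out, 1 to 2 were called. Quantile normalization gave 3 (2 higher, 1 lower). Equal RPKM sums moved the median log2 fold change of all genes in E65 vs. E45 from -0.07 to -0.17 and quantile normalization moved it to 0.08. Chosen after the data were seen, the same settings were run on the comparisons that the rule used. Of the members, 11 were called in E55 vs. E45 with equal RPKM sums, where 0.699% of all genes were called lower, and 18 with array weights, where 5.6% were, against 0.494% as reported. With 1 embryo left out, 0 to 19 members were called in E55 vs. E45, with 0% to 6.45% of all genes called lower. In E65 vs. E55 4 to 15 members were called, with 0.77% to 3.35% of all genes called higher. The 15 were called without E45-1, where 2.77% of all genes were called higher. The number in E55 vs. E45 was 1 without E45-3, E55-1, E65-1 or E65-3, 2 without E55-3 and 3 without E65-2, with 0.00601% to 0.126% of all genes called lower in these fits.

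With the replicate number as a block (replicate block), 5 members were called in E55 vs. E45, of which 3 were among the 5 called without it. Of all tested genes 0.265% were called lower there, against 0.494% without the block. In E65 vs. E55 12 members were called, of which 10 were called without it. Of all tested genes 1.99% were called higher there, against 2.11% without the block. In E65 vs. E45 2 members were called, with 784 genes called higher and 1511 lower, against 813 and 1530 without the block. The residuals of same-numbered samples correlated at -0.30 to 0.41 over the pairs of stages. Differently numbered samples were not compared in this way, so whether the replicate number links embryos was not tested.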
